A study of Rattus norvegicus with 35 samples.

Results

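Of the 10 sequence features with the highest mean share of reads in rat colon and faecal libraries, 3 had a mean share in faeces more than 2 times their mean share in colon, out of 1073 features in all. They are feature fdbff060c0adc3184b21540df9bbbee1, feature df3a540f09c1e5ddac171aaeac341297 and feature b2ce7f937c4d1e391758282974fcf514, called fdbff060, df3a540f and b2ce7f93 here after the first characters of their codes. These features were chosen by their read shares in the same libraries, so their higher level in faeces is a description and was given no test. The libraries are amplicons of a stretch (V3-V4) of the bacterial 16S ribosomal RNA gene from rats (Rattus norvegicus) that received footshocks, a rodent model of post-traumatic stress disorder, and from control rats. Controls gave 10 colon and 9 faecal libraries, numbered 1 to 10 (faeces 9 was not analysed here), and shocked rats gave 8 of each, numbered 11 to 18. The labels record no strain, age, sex or shock schedule, do not say whether the colon material was tissue, mucus or content, and do not say that libraries of the same number came from the same rat.

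The 16S ribosomal RNA gene is carried by all bacteria and differs in sequence between them, so the share of reads that a feature takes is used as a measure of how much of the amplified community the bacteria with that sequence make up. A share is relative: it falls when others grow, and bacteria with more copies of the gene yield more reads. In the mammalian gut, bacteria held in the mucus at the colon wall and bacteria of the passing content differ in makeup, and faeces sample mainly the content. The deposited table pairs no feature with a sequence or with the name of a bacterium, so the 3 features are known here by code and by behaviour only.

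Colon libraries held 448 to 16155 reads (median 3097) and faecal libraries 4703 to 24251 (median 10178). Both libraries numbered 1 stood apart. The library labelled control faeces 1 had a mean Bray-Curtis distance (0 for identical and 1 for wholly different read shares) of 0.961 to the rest of its group, and it was also far from the colon libraries (0.925). The library labelled control colon 1 was closer to the faecal libraries (0.511) than to the other colon libraries (0.681). Shocked colon 18 was slightly so (0.602 against 0.612). The main results that rest on the libraries numbered 1 are given with and without them.

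Feature fdbff060 had the highest mean share of all 1073 features, at 6.55% over the 35 libraries. In control colon it took 2.19% to 9.22% of reads (median 4.23%) and in shocked colon 0% to 9.38% (median 2.72%). In control faeces it took 0% to 22.3% (median 8.75%), and in shocked faeces 1.0% to 13.8% (median 6.98%). The groups overlapped throughout, and the lowest control faecal value was that of number 1, which had 0 of 6586 reads. The deposited table holds no count of 1, so a listed 0 may stand for 1 read and no upper limit is given for it. Mean shares fell in the order control faeces (11.1% ± 6.62, SD, n = 9), shocked faeces (6.93% ± 3.87, SD, n = 8), control colon (4.90% ± 2.19, SD, n = 10) and shocked colon (3.12% ± 2.88, SD, n = 8). Each neighbouring pair in that order differed by less than the larger of its SDs. The feature was the most abundant of all features in 9 of 17 faecal libraries and in 0 of 18 colon libraries, where its median rank was 6 in the 17 libraries that held it.

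Feature df3a540f was read in all 18 colon libraries and in 16 of 17 faecal libraries, where faeces 1 was again the exception. It took 1.12% to 3.48% of control colon reads (median 1.71%) and 0.423% to 5.13% of shocked colon reads (median 2.67%). In control faeces its share was 0% to 16.3% (median 6.07%), and in shocked faeces 4.58% to 9.89% (median 6.80%). Apart from faeces 1, every faecal library held at least 4.33%, a level that 2 colon libraries exceeded (shocked 14 with 4.46% and shocked 18 with 5.13%). The mean was 7.12% ± 4.66 in control faeces (SD, n = 9), 6.62% ± 1.73 in shocked faeces (SD, n = 8), 2.79% ± 1.56 in shocked colon (SD, n = 8) and 2.05% ± 0.835 in control colon (SD, n = 10). Shocked faeces and shocked colon, neighbours in this order, differed by more than either SD, and the other neighbours by less than the larger SD of the pair. Over the 17 faecal libraries its coefficient of variation (SD over mean) was 0.508, against 0.629 for fdbff060 and 0.593 for b2ce7f93. Within control faeces the order differed, with 0.655 for df3a540f, 0.596 for fdbff060 and 0.567 for b2ce7f93.

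Feature b2ce7f93 was scarce in colon and common in faeces. Its share was 0.374% to 6.66% in control colon (median 0.620%), with all libraries but number 1 at or under 1.44%, and 0% to 1.89% in shocked colon (median 0.981%). In control faeces it was 0% to 7.53% (median 4.57%) and in shocked faeces 0.125% to 10.8% (median 5.49%). It was not read in shocked colon 17 (0 of 691 reads) or shocked colon 18 (0 of 2982 reads). Shocked faeces 17 held only 16 reads of 12800, or 0.125% (95% exact binomial interval 0.0715% to 0.203%), while the other 7 shocked faecal libraries held at least 1.44%. Group means were 5.09% ± 3.29 in shocked faeces (SD, n = 8), 4.61% ± 2.61 in control faeces (SD, n = 9), 1.32% ± 1.90 in control colon (SD, n = 10) and, lowest, 0.881% ± 0.688 in shocked colon (SD, n = 8). Control faeces and control colon, neighbours in this order, differed by more than either SD, and the other neighbours by less than the larger SD of the pair. The interval of a single library covers counting error only, since PCR reads without molecular identifiers are not independent molecules.

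**Figure D1:**
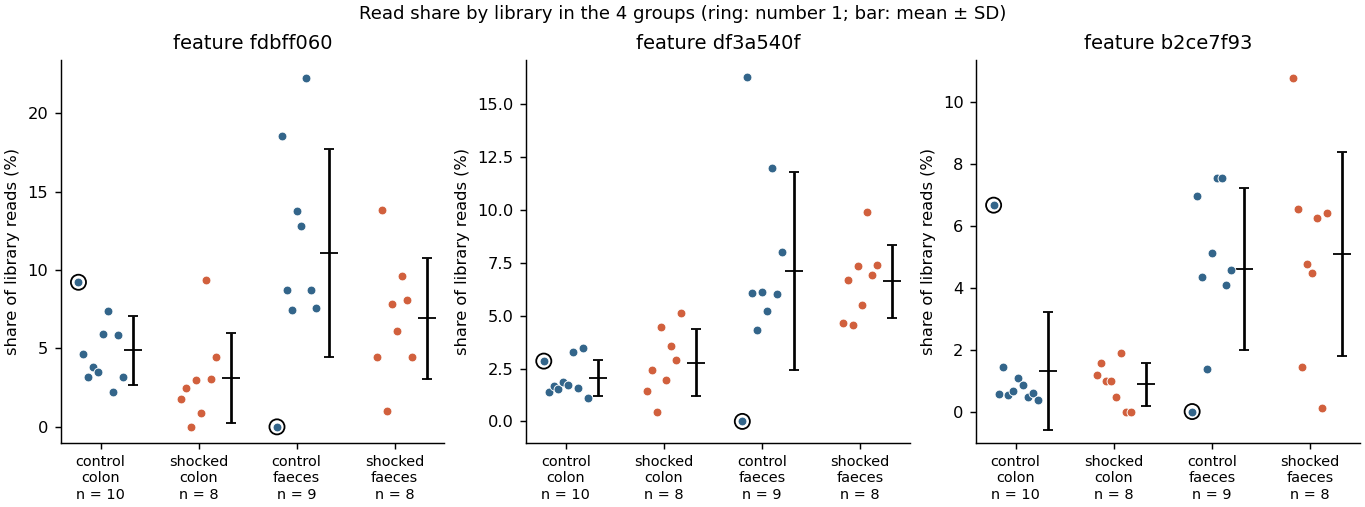
Share of library reads (%, vertical axis) of each of the 3 features in the 4 groups; each point is a library, the ring marks libraries numbered 1, and the bar is the mean ± SD of all libraries of the group. All 3 features were at 0 in control faeces 1, and b2ce7f93 reached 6.66% in control colon 1 where the other control colon libraries held at most 1.44%.

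Together the 3 features held 20.9% ± 10.4 of the reads in faeces (SD, n = 17), against 7.61% ± 4.22 in colon (SD, n = 18). Their summed share reached 41.8% in control faeces 7, the highest value of that group, and 27.0% at most in shocked faeces. Ratios of the faecal to the colon mean, on which the choice rests, were 2.23 for fdbff060, 2.90 for df3a540f and 4.30 for b2ce7f93. Without the libraries numbered 1 the ratios were 2.55, 3.11 and 6.42. In geometric means with 0.5 read added, the ratio of fdbff060 was 1.91, under the limit of 2 used in the choice, and it was 3.08 without the libraries numbered 1. The geometric ratios of df3a540f and b2ce7f93 were 2.19 and 4.06, and 3.33 and 6.71 without number 1. The next feature below that limit, 95fdd816723ca482a5caba10bea171c8, had a ratio of 1.90 and a mean share of 3.35%. The limit on abundance lay between a feature at 1.86% in rank 10 and one at 1.75% in rank 11. Of the other 7 features in the first 10, 3 had colon means 6.23 to 7.64 times their faecal means and 4 lay between the limits. In sum, those 3 held 17.9% ± 9.49 of the reads in colon (SD, n = 18) and 2.70% ± 1.39 in faeces (SD, n = 17).

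Pairs of one colon and one faecal library with the same number were then compared. Each feature had the higher share in the faecal library of 16 of 17 pairs, and pair 1 was the exception for all 3. In that pair the colon library held 9.22% of fdbff060, 2.85% of df3a540f and 6.66% of b2ce7f93, and the faecal library held none of them. Faeces exceeded colon on average by 5.14 percentage points for fdbff060 (SD 5.72 over 17 pairs), by 4.57 for df3a540f (SD 3.57) and by 3.68 for b2ce7f93 (SD 3.61). Over the 16 pairs without number 1 the excesses were 6.03 (SD 4.51), 5.04 (SD 3.11) and 4.33 (SD 2.51) percentage points. Among pairs with reads on both sides, the median faecal to colon ratio was 2.67 for fdbff060 (15 pairs), 3.14 for df3a540f (16 pairs) and 7.37 for b2ce7f93 (14 pairs). The size of the excess varied widely between pairs. For fdbff060 the shocked pairs 16 and 18 held nearly equal shares (9.38% and 9.64%, and 4.43% and 4.45%, colon first), while the ratio reached 7.13 in another shocked pair. For df3a540f the ratio ran from 1.44 in shocked pair 18 to 11.8 among the control pairs.

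Whether a library number with much of a feature in colon also had much in faeces was asked by correlating the shares over the 17 same-number pairs. No feature passed the test after Benjamini-Hochberg adjustment over the 71 features read in at least 25% of colon and of faecal libraries, where calls made up 0% of all features by Spearman's rho and 0% by Pearson's r. For fdbff060, rho was 0.31 (permutation p = 0.223, adjusted p = 0.719) and r was 0.24 (permutation p = 0.355, adjusted p = 0.668). For df3a540f, rho was 0.34 (permutation p = 0.189, adjusted p = 0.652) and r was 0.12 (permutation p = 0.638, adjusted p = 0.874). For b2ce7f93, rho was 0.18 (permutation p = 0.488, adjusted p = 0.825) and r was -0.29 (permutation p = 0.270, adjusted p = 0.633). The median rho over all 71 features was 0.15.

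Pair 1 set part of these values. Without it, rho was 0.54 for fdbff060 (permutation p = 0.0321, adjusted p = 0.325), 0.42 for df3a540f (permutation p = 0.108, adjusted p = 0.504) and 0.42 for b2ce7f93 (permutation p = 0.111, adjusted p = 0.504), with a median of 0.24 over the 71 features. Leaving out instead the 2 pairs whose colon share lay farthest from the median gave an r of 0.75 for fdbff060, 0.13 for df3a540f and 0.39 for b2ce7f93. Leaving out pair 1 and then the 2 farthest gave 0.60, 0.32 and 0.37. Within the 9 control pairs rho was 0.10, -0.22 and 0.02 for fdbff060, df3a540f and b2ce7f93. Within the 8 shocked pairs it was 0.45, 0.93 and 0.54, and the value for df3a540f had an exact permutation p of 0.00223 and an adjusted p of 0.101 over the 68 features that could be tested. Shocked number 13 was the lowest of the shocked libraries for fdbff060 in both sample types (0 of 2362 reads in colon and 97 of 9697 in faeces), and shocked number 17 was at or near 0 for b2ce7f93 in both. Shocked number 18 had no reads of b2ce7f93 in colon and 6.41% in faeces.

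**Figure D2:**
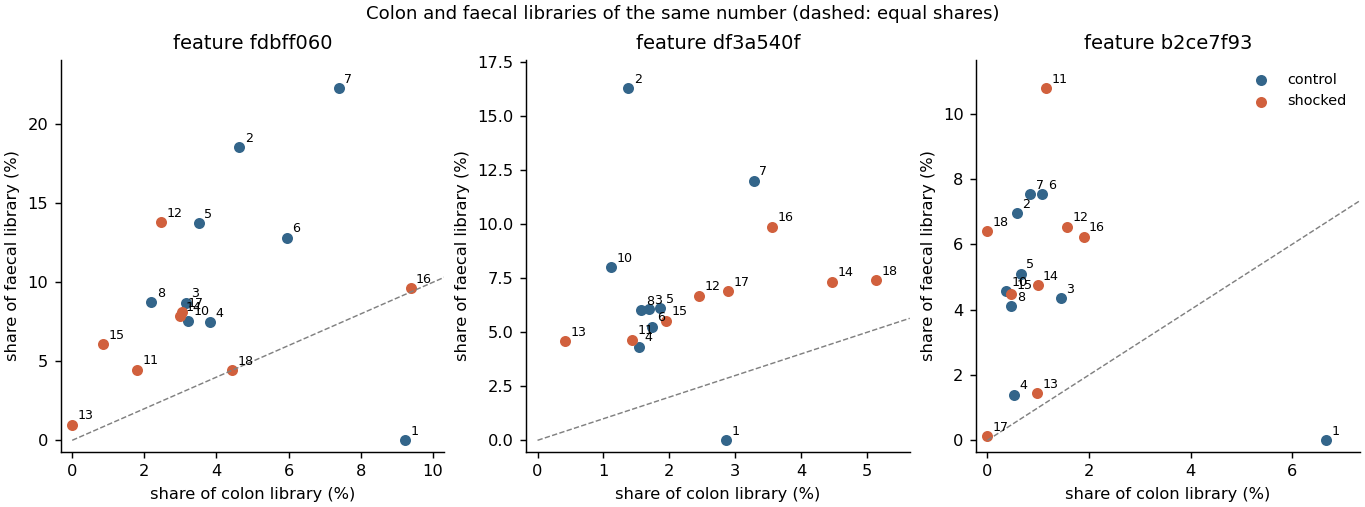
Share of each feature in the colon library (%, horizontal axis) against its share in the faecal library of the same number (%, vertical axis); points are the 17 numbered pairs, coloured by treatment, and the dashed line marks equal shares. Of the 17 pairs, 16 lie above the line in every panel, and pair 1 lies on the horizontal axis.

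Footshock played no part in the choice of the features, and its effect on them was tested with edgeR on read counts over all features with reads in 25% or more of the libraries of a sample type. In faeces 0 of the 3 features passed the test (edgeR quasi-likelihood, adjusted p under 0.05), against 1.48% of the 135 features tested. An unadjusted p under 0.05 was found for 0 of the 3, against 6 of the 135. DESeq2 and limma on centred log-ratios also called 0 of the 3, and each called 2 of the 135. The log2 fold change in shocked over control faeces was -0.71 ± 0.75 (SE) for fdbff060 (edgeR adjusted p = 0.983), -0.11 ± 0.72 for df3a540f (adjusted p = 0.983) and 0.06 ± 0.81 for b2ce7f93 (adjusted p = 0.983). Over the alternative settings, the adjusted p for fdbff060 ran from 0.336 to 1. Without faeces 1 the log2 fold change of fdbff060 was -0.88 ± 0.41 (edgeR p = 0.0426, adjusted p = 0.991), and 7 of the 167 features tested there had an unadjusted p under 0.05. In that setting control faeces averaged 12.5% ± 5.50 of reads (SD, n = 8).

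In colon, 0 of the 3 features passed the test, against 8.42% of the 95 features tested; 0 of the 3, against 9 of the 95, had an unadjusted p under 0.05, and DESeq2 and limma on centred log-ratios called 0. Log2 fold changes were -0.97 ± 0.69 (SE) for fdbff060 (edgeR adjusted p = 0.676), 0.05 ± 0.70 for df3a540f (adjusted p = 0.985) and -0.82 ± 1.05 for b2ce7f93 (adjusted p = 0.826). Adjusted p-values for fdbff060 ran from 0.192 to 0.984 over the alternative settings. With 1 library left out at a time its log2 fold change ran from -1.63 to -0.78, and the value of -1.63 ± 0.73 (edgeR p = 0.0293, adjusted p = 0.303) was that without shocked colon 16, the library with its highest share in that group. Without colon 1 the log2 fold change of b2ce7f93 was -0.20 ± 1.14 (edgeR adjusted p = 0.982). Depth moved with treatment here: the mean library size was 6212 ± 5474 reads in control colon (SD, n = 10) against 2717 ± 2915 in shocked colon (SD, n = 8). Across the 18 colon libraries the share of fdbff060 and depth had a positive correlation that did not pass the adjustment (rho = 0.61, permutation p = 0.00924, adjusted p = 0.185 over 20 relations; r = 0.45, permutation p = 0.0559, adjusted p = 0.373), and r was 0.43 without the 2 libraries farthest from the median depth. For b2ce7f93 in colon r was 0.65 (permutation p = 0.00983, adjusted p = 0.177) and rho 0.35 (permutation p = 0.160, adjusted p = 0.604), and r was 0.12 without the 2 farthest libraries. None of the 20 relations passed. The part of depth in the difference of fdbff060 was not tested beyond thinning to 1000 reads, where the log2 fold change was -0.88 ± 0.75 (SE; edgeR adjusted p = 0.722).

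The footshock responses of the 2 sample types were then compared as an interaction. None of the 3 features passed (0 of 3), against 0% of the 127 features tested by edgeR, where 13 of the 127 and 0 of the 3 had an unadjusted p under 0.05. Among the 3, DESeq2 and limma on centred log-ratios also called 0, and over all features tested DESeq2 called 2. The response in faeces minus that in colon was 0.52 ± 0.98 (log2, SE) for fdbff060, 0.0028 ± 0.89 for df3a540f and 1.17 ± 1.18 for b2ce7f93 (edgeR adjusted p = 0.9998 for each). Without the libraries numbered 1 the values were -0.20 ± 0.85, -0.50 ± 0.70 and -0.0053 ± 0.99. These SEs leave room for changes of more than 1 log2 unit in either sample type, so the tests bound the responses only loosely.

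**Figure D3:**
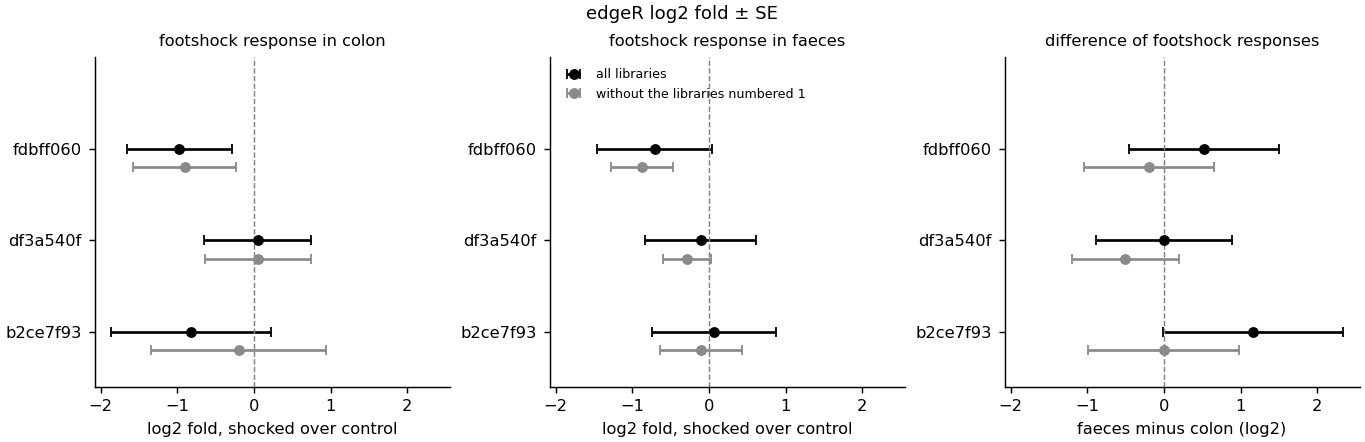
edgeR log2 fold change of each feature (horizontal axis, log2) in shocked over control colon, in shocked over control faeces, and the difference of these responses; points are estimates, bars ± SE, black with all libraries and grey without the libraries numbered 1. In colon, fdbff060 lay at -0.97 with all libraries and df3a540f at 0.05.

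Within a sample type, the 3 features were compared library by library with each other and with the other 7 abundant features, giving 45 pairs of features in colon and 45 in faeces. Shares of a library sum to 100% and share its depth, so these values are not independent of each other. In faeces rho was above 0 for each pair of the 3 features but did not pass the test: it was 0.59 between fdbff060 and df3a540f, 0.51 between fdbff060 and b2ce7f93 and 0.46 between df3a540f and b2ce7f93 (n = 17, permutation p = 0.0133, 0.0388 and 0.0661; adjusted p = 0.169, 0.306 and 0.331 over 90 pairs). By Spearman's rho 0 of the 6 member pairs passed, against 2.22% of the 90 pairs. By Pearson's r 1 of the 6 passed, against 4.44% of the 90: fdbff060 and df3a540f in faeces, with r = 0.75 (permutation p = 0.00052, adjusted p = 0.0156). Without faeces 1 the 3 faecal values of rho were 0.51, 0.41 and 0.35, and without faeces 1 and the next 2 farthest libraries 0.27, 0.24 and 0.20, in the same order of pairs. Within control faeces they were 0.75, 0.88 and 0.70, and within shocked faeces 0.45, 0.12 and 0.10. The other faecal values of r were 0.47 for fdbff060 with b2ce7f93 (permutation p = 0.0566, adjusted p = 0.286) and 0.45 for df3a540f with b2ce7f93 (permutation p = 0.0718, adjusted p = 0.340), and without faeces 1 these were 0.36 and 0.29. Pairs of a member with an abundant feature between the limits had a median rho of 0.10 in faeces and 0.09 in colon. None passed by rho, and the highest was 0.57 in each. In faeces this was fdbff060 with 0df6c802966e8670279671824da4f10a (r = 0.67, permutation p = 0.0035, adjusted p = 0.063). In colon it was b2ce7f93 with that feature, which passed by r (0.70, permutation p = 0.00137, adjusted p = 0.0308). Without colon 1 that r was 0.62 (adjusted p = 0.158 by permutation).

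The call between fdbff060 and df3a540f in faeces rested on few libraries. It was lost without faeces 1 (r = 0.70, adjusted p = 0.144) and without the 2 libraries farthest from the median share of fdbff060 (r = 0.52, adjusted p = 0.456). Without faeces 1 and the next 2 farthest libraries r was 0.24. Control faeces 2 and 7 held the highest shares of both features (18.6% and 22.3% of fdbff060, 16.3% and 12% of df3a540f). On centred log-ratios, where each feature is set against the mean of all common features, r was 0.92 (permutation p = 3.0e-05, adjusted p = 0.00135) and rho 0.77 (adjusted p = 0.0177). These values include faeces 1, with 0 reads of both features. Without number 1, r on centred log-ratios was 0.72 (permutation p = 0.00214, adjusted p = 0.0385) and rho 0.72 (permutation p = 0.00196, adjusted p = 0.054). On centred log-ratios r called 10 of all 90 pairs and rho 8, and without number 1 they called 5 and 2. On read shares, r within control faeces was 0.84 (n = 9, exact permutation p = 0.00597, adjusted p = 0.134) and within shocked faeces 0.56 (n = 8, exact permutation p = 0.145, adjusted p = 0.713).

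The same pairs were compared in colon; no test compared colon with faeces. Between fdbff060 and df3a540f rho was 0.41 (permutation p = 0.0880, adjusted p = 0.377) and r was 0.46 (permutation p = 0.0538, adjusted p = 0.286). On centred log-ratios rho was 0.70 (adjusted p = 0.0284) and r 0.73 (adjusted p = 0.0045 by permutation), and without number 1 rho was 0.68 (adjusted p = 0.0634) and r 0.72 (adjusted p = 0.0139). On that scale rho called 8 of the 90 pairs of both sample types and r 10, and without number 1 they called 2 and 5. The part of depth in these values was not tested. On read shares, rho within shocked colon was 0.86 (n = 8, exact permutation p = 0.0107, adjusted p = 0.461). Between fdbff060 and b2ce7f93 rho was 0.23 (permutation p = 0.364, adjusted p = 0.707), with r = 0.54 (permutation p = 0.0208, adjusted p = 0.173) that came to 0.27 without colon 1 and to -0.10 without the 2 farthest libraries. Between df3a540f and b2ce7f93 rho was 0.07 and r 0.06 (permutation p = 0.781 and 0.842, adjusted p = 0.950 and 0.946).

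The abundant features of the opposite kind, with more than 2 times the share in colon, were set against the 3 features in the same way. Over the 9 pairs of a member with one of them, the median rho was -0.12 in colon (range -0.39 to 0.09) and 0.34 in faeces (range -0.14 to 0.61), and 0 of these 18 pairs passed, with 2.22% of all 90 called. Without the libraries numbered 1 the medians were 0.05 in colon (range -0.38 to 0.20) and 0.24 in faeces (range -0.07 to 0.54). Without number 1 and the next 2 farthest libraries they were -0.025 and 0.38. In that last setting the median among the 3 features in faeces was 0.24. By rho, the features most like each member over the faecal libraries were sought among 134 others. For fdbff060 these were 141ddb34f78140905a869674af245c1b (rho 0.64 in faeces, 0.24 in colon), a minor feature with a faecal mean of 0.234% ± 0.359 (SD, n = 17), and df3a540f itself. For df3a540f they were 76b219eb7351347070ab7205275b9c02 (rho 0.66 in faeces, 0.36 in colon) and 0b7372a13611c07b69bf1a93545e738f (0.63 in faeces, -0.002 in colon). For b2ce7f93 they were 13981cb71fe72fefcc33c002a9c5c8c1 (0.75 in faeces, 0.44 in colon) and 9d5054752ed33d6a22bd0f96b5618b1c (0.71 in faeces, 0.53 in colon), the latter with a mean of 0.713% ± 0.771 in faeces (SD, n = 17), against 0.105% ± 0.192 in colon (SD, n = 18). These are the highest of many values and were given no test. The minor feature named for fdbff060 was read in only 6 of 17 faecal and 5 of 18 colon libraries. The second named for df3a540f was read in 8 faecal libraries, and the first named for b2ce7f93 in 9. Their rho values thus include many ties at 0. By edgeR, 141ddb34f78140905a869674af245c1b had a log2 fold change of -8.71 ± 2.05 (SE, adjusted p = 0.0334) in shocked over control faeces. In colon it was -7.00 ± 2.14 (SE, edgeR adjusted p = 0.0292). With reads in so few libraries, both values rest mostly on counts of 0, and the size of these folds is not well set. The part of treatment in the rho of this feature was not tested.

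**Figure D4:**
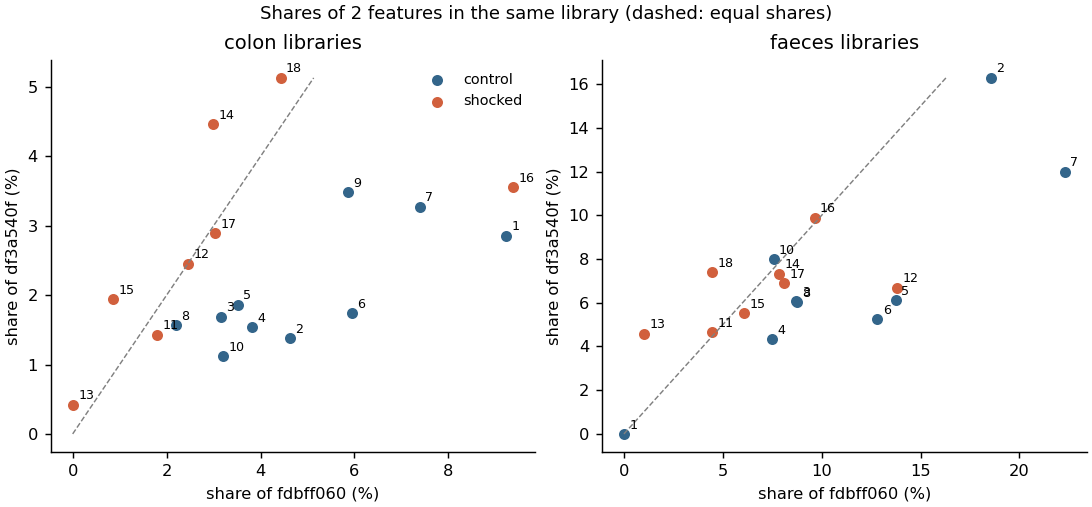
Share of fdbff060 (%, horizontal axis) against share of df3a540f (%, vertical axis) in colon libraries (left) and faecal libraries (right); points are libraries with their numbers, coloured by treatment, and the dashed line marks equal shares. All 10 control colon libraries lie below the line, and in faeces r was 0.75 over 17 libraries.

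The order of the 3 features within a library was the same in every control colon library for fdbff060 and df3a540f: fdbff060 had the higher count in 10 of 10. In shocked colon df3a540f had the higher count in 4 of 8 libraries, fdbff060 in 3, and 1 library held 11 reads of each. In control faeces fdbff060 was ahead in 7 of 9 libraries and df3a540f in 1, with no reads of either in number 1. In shocked faeces each was ahead in 4 of 8. Feature b2ce7f93 was below fdbff060 in 30 of the 35 libraries, above it in 1 shocked colon and 3 shocked faecal libraries, and level with it at 0 reads in faeces 1.

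The ratio of df3a540f to fdbff060 reads within a library does not depend on the other features of that library. It was compared between treatments after the shares had been seen, so the test was not chosen independently of the data. The same ratio was computed for all 45 pairs of the 10 most abundant features in each sample type, with 0.5 read added to each count and libraries with no read of either feature left out. As plain reads, df3a540f was 0.292 to 0.714 of fdbff060 in the 10 control colon libraries. In the 7 shocked colon libraries with reads of both it was 0.379 in number 16 and 0.80 to 2.27 in the other 6, and number 13 had 10 reads of df3a540f and 0 of fdbff060. On the log2 scale the ratio averaged -1.22 ± 0.46 in control colon (SD, n = 10) against 0.57 ± 1.71 in shocked colon (SD, n = 8). The difference was 1.79, with an exact permutation p of 0.00048 (two-sided; adjusted p = 0.0432 over 90 comparisons), and 7 of 8 shocked libraries lay above the control median. Of the 6 comparisons among the 3 features, 1 passed, against 1.11% of the 90, and 2 had an unadjusted p under 0.05, against 12.2% of the 90.

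The colon difference stood close to the threshold. It was lost when any single one of 16 of the 18 colon libraries was left out (difference 1.24 to 2.07, adjusted p = 0.00463 to 0.125 over the 18 by exact permutation), and it passed without control colon 8 or without shocked colon 16. The smallest difference, 1.24, was that without shocked colon 13. On ranks of the ratio the exact permutation p was 0.00137 (adjusted p = 0.123). In faeces the log2 ratio averaged -0.66 ± 0.47 in controls (SD, n = 8) and 0.19 ± 0.94 in shocked libraries (SD, n = 8), a difference of 0.85 that failed the adjustment (exact permutation p = 0.0225, adjusted p = 0.338), with 7 of 8 shocked libraries above the control median. Number 13 had the highest plain ratio in faeces too, at 4.58, and number 12 the lowest of the shocked libraries at 0.485. Ratios of b2ce7f93 to the other 2 features did not pass in either sample type (exact permutation p = 0.311 to 0.778, adjusted p = 0.657 to 0.914). Read counts behind the shocked colon ratios were as low as 10 and 0, depth was lower in that group as given above, and the part of depth in the difference was not tested.

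**Figure D5:**
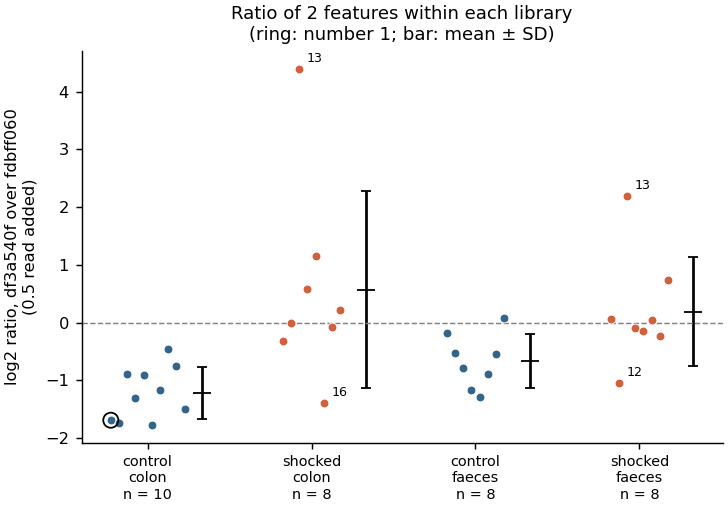
Log2 ratio of df3a540f to fdbff060 reads (vertical axis, log2, 0.5 read added to each count) in the 4 groups; each point is a library with reads of at least 1 of the features, and the bar is the mean ± SD. Mean ratios were -1.22 in control colon, 0.57 in shocked colon, -0.66 in control faeces and 0.19 in shocked faeces.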

How the data were processed

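The values deposited by the authors are raw counts of reads for each feature and library, written out of a biom file, as the file header states. Cutadapt was used, per the submitters' processing notes; not given in the sources used here are its version, the tool behind the features and any filter on reads. The lowest count above 0 is 2, so detection means at least 2 reads. The features and tests were chosen with earlier results of these data known.

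Shares are reads over library total. All 137 pairs of libraries within a group differed by more than sampling noise (chi-square over degrees of freedom at least 9.82); since separate animals are not stated, p-values measure spread between libraries. Footshock was tested with edgeR 4.0.16 (quasi-likelihood F test, TMM, R 4.3.3), features read in at least 25% of libraries, Benjamini-Hochberg adjustment, threshold 0.05; each SE is the log2 fold change over the root of F. Correlations used 100000 permutations, exact under 10 values. Alternatives used DESeq2 1.42.0, limma 3.58.1, other normalizations and filters, and libraries left out. The edgeR and correlation steps were tested on simulated data. The changes planted for edgeR were larger than those reported for the 3 features, and the correlation step was run on normally distributed values. These simulations therefore do not show how well effects of the reported size are found in read shares. The ratio of features, the relation to depth, the removal of number 1 with the next 2 libraries, and centred log-ratios and geometric means without number 1 were added after seeing the data. Named features were the 3 members and the 2 features with the highest rho to each in faeces.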

Additional observations from a re-analysis of the deposited data

Results flagged for a closer look

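A library far from the rest of its group was looked for in 16 combinations of a share and a group, and 3 were found. The limit used marks about 1 in 20 groups by chance where values are normally distributed. The combinations are not independent, since the summed share is made up of the 3 features. Control colon 1 was found both for b2ce7f93 and for the sum, so the number found cannot be set against that rate. Control colon 1 held 6.66% of b2ce7f93, and the next highest control colon library held 1.44%. The summed share of the 3 features reached 18.7% in control colon 1, where the next highest library of the group held 11.5%. Shocked colon 16 held 9.38% of fdbff060, against 4.43% in the next highest shocked colon library.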

How the results depend on the processing

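In every edgeR, DESeq2 and limma setting run, 0 of the 3 features were called for footshock in faeces, in colon or in the interaction. With the library number as a replicate block, the interaction was 1.31 for fdbff060, 0.47 for df3a540f and 1.003 for b2ce7f93 (log2; edgeR adjusted p = 1 for each), and the block changed no call. The numbers were no block in the reported tests because the labels do not say that the same number means the same rat. The deviations of same-numbered libraries from their groups had a median correlation of 0.10 over 127 features. It was over 0.1 in 9 of 17 pairs and -0.24 for number 1. Of the 17 colon libraries in these pairs, 5 were closest to the faecal library of their own number, and this count was not tested. The sign of values near 0 changed with the setting. In faeces, b2ce7f93 was -0.024 with TMMwsp, -0.11 with limma, -0.0011 without a filter, -0.015 with a filter at 50% and -0.10 without number 1, and df3a540f was 0.32 with limma. In colon, df3a540f was -0.12 in 1 fit over all groups. The interaction of df3a540f was -0.34 with DESeq2, -0.58 with TMMwsp, -0.55 with library totals, -0.26 without a filter, -0.34 with a filter at 50%, -0.42 thinned to 1000 reads, -0.34 without libraries under 1000 reads and -0.50 without number 1. That of fdbff060 was -0.078 with TMMwsp, -0.031 with library totals, -0.14 thinned and -0.20 without number 1, and that of b2ce7f93 -0.0053 without number 1. Leaving out 1 library at a time gave -0.37 to 0.17 for df3a540f and -0.10 to 0.35 for b2ce7f93 in faeces, and -0.19 to 0.30 for df3a540f in colon. For the interaction it gave -0.51 to 0.44 for df3a540f and -0.035 to 0.97 for fdbff060. Calls over all features, the background, were less stable. In faeces (2 as reported) there were 475 without a filter, 0 at 50%, 1 thinned, 1 without number 1 and 1 to 3 with 1 library out. In colon (8) there were 3 with DESeq2, 2 with limma, 304 without a filter, 0 at 50%, 2 thinned, 3 without libraries under 1000 reads, 0 in 1 fit over all groups and 2 to 15 with 1 library out (15 without shocked colon 11, 4 without control colon 2, 3 or 4, 3 without shocked colon 16 and 2 without shocked colon 13, 15, 17 or 18). The interaction (0) had 2 with DESeq2 and 10 without a filter. The cause was not tested.

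Among same-number correlations, 0 of 3 features were called in every setting. Over all 71 features (68 within shocked pairs), rho also called 0 in every setting. Pearson's r called 1 of the 71 without libraries under 1000 reads and 0 in each other setting. Signs changed for df3a540f (r = -0.083 on centred log-ratios; rho = -0.22 and r = -0.14 within controls), for fdbff060 (r = -0.030 within controls) and for b2ce7f93 (r = 0.43 within shocked pairs, 0.43 on centred log-ratios without pair 1, 0.39 without pair 1, 0.39 without the 2 farthest pairs and 0.37 without pair 1 and the 2 next; rho = -0.037 without libraries under 1000 reads and -0.20 thinned). Of the 6 member pairs, Pearson's r called 2 on centred log-ratios, against 10 of all 90 pairs. On these without number 1 it called 2 of the 6, against 5 of the 90. It called 0 of the 6 within controls, within shocked libraries, without number 1, without the 2 farthest libraries, without number 1 and the next 2, or thinned. In those settings it called 0 to 3 of the 90. Spearman's rho called 3 of the 6 on centred log-ratios, against 8 of the 90. In colon, df3a540f with b2ce7f93 had rho = -0.16 and r = -0.22 within shocked libraries and r = -0.085 without number 1 (-0.049 on centred log-ratios). In colon, fdbff060 with b2ce7f93 had rho = -0.099 and r = -0.10 without the 2 farthest libraries, and rho = -0.13 and r = -0.16 without number 1 and the next 2. For the log2 ratio of df3a540f to fdbff060 in colon, the shocked minus control difference lost its call in several settings. It did so without number 1 (difference 1.74, adjusted p = 0.0926 by exact permutation) and without libraries under 1000 reads (2.07, adjusted p = 0.144). The call was also lost in 16 of 18 settings with 1 library out (differences 1.24 to 2.07 over the 18). With 1 library out, the same difference for the log2 ratio of b2ce7f93 to fdbff060 in colon ranged from -0.40 to 1.54. For that of b2ce7f93 to df3a540f in faeces the difference ranged from -0.68 to 0.31. Depth limits the low colon shares, since the smallest colon library held 448 reads.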
